A study of Mus musculus with 12 samples.

Results

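The 9 genes described here encode enzymes, and 1 helper protein, that make prostaglandins and leukotrienes: *Pla2g4a*, *Ptgs1*, *Ptgs2*, *Ptges*, *Hpgds*, *Alox5ap*, *Alox5*, *Lta4h* and *Ltc4s*. They were taken by symbol from a count table of 55471 genes, in which all 9 were found, and all 9 passed the filter on low counts. RNA was sequenced from dendritic cells (DCs) of the mouse, grown in GM-CSF, a growth factor of myeloid cells, out of bone marrow of adult female C57BL/6 animals. The cells of all groups carried a retroviral short hairpin RNA (shRNA) and were sorted on human CD8, the marker of transduced cells. The control hairpin (shControl) targeted firefly luciferase. The other (sh*Ppargc1b*) targeted *Ppargc1b*, which encodes PGC-1β, a co-activator of transcription. Each was examined unstimulated and after 6 h with interferon-β (IFN-β), an antiviral cytokine, in 3 libraries per group and 12 in all. Only 1 hairpin against *Ppargc1b* was compared with 1 control hairpin. No source used here says that the 3 libraries of a group came from separate mice or cultures, so p-values measure the spread between these libraries, which may be technical.

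Eicosanoids are lipid mediators made from arachidonic acid. Cytosolic phospholipase A2 frees the fatty acid from membranes, the cyclooxygenases turn it into prostaglandin H2, and terminal synthases turn that into prostaglandin E2, prostaglandin D2 or thromboxane. In the other branch, lipoxygenase and its partner protein FLAP make leukotriene A4, which is then converted into leukotriene B4 or conjugated into leukotriene C4. In DCs these mediators are known to act on migration, on cytokine output and on the priming of T cells.

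The libraries held 49.9 to 77.7 M counts, so that the members were covered by 72 to 13554 counts per library. Levels are given as CPM, counts scaled to a common library size. Without IFN-β *Ppargc1b* itself was at 34.5 ± 1.94 CPM under the control hairpin and 19.4 ± 0.851 CPM under its own (SD, n = 3 each), which is 56.3% of control. With IFN-β it was at 67.2% of control. There *Ppargc1b* was at 27.8 ± 3.93 CPM in shControl and 18.7 ± 2.83 CPM in sh*Ppargc1b* cells. The log2 fold change of *Ppargc1b* with IFN-β was -0.31 ± 0.10 in shControl (SE, adjusted p = 0.0210) and -0.06 ± 0.11 in sh*Ppargc1b* cells (adjusted p = 0.705). Of the markers that define DCs, *Itgax* (CD11c) was abundant in every library, and the summed level of 9 dendritic-like markers was 1063 to 1176 CPM in unstimulated shControl against 1423 to 1461 CPM in unstimulated sh*Ppargc1b* cells, and with IFN-β 1226 to 1347 against 1694 to 1777 CPM. The part of this in the knockdown results was not tested. The summed level of 10 macrophage-like markers was higher than that of the dendritic-like markers in each group, at 2860 to 3036 CPM in shControl and 2605 to 2682 CPM in sh*Ppargc1b* cells without IFN-β and 3631 to 3892 and 3161 to 3346 CPM with it. Of the 10 macrophage-like markers, 3 were lower with knockdown without IFN-β and 5 with it, beside 11.1% and 12.7% of all genes. For IFN-β, 6 were higher in each cell group, beside 23.7% of all genes in shControl and 21.4% in sh*Ppargc1b* cells. The part of the macrophage-like markers in the results was not tested. In bulk RNA, fewer cells of a type and less RNA per cell cannot be told apart.

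The stretches of 250 bases before the annotated start of the 4 members with the largest response to IFN-β are shown first, in the direction of transcription, because these genes changed most. They are RefSeq sequences of build GRCm38.p6. The *Ptgs2* stretch is chr1:150099781-150100030 on the plus strand and overlaps an exon of the antisense gene *Ptgs2os*. The *Ptges* stretch is chr2:30903298-30903547 on the minus strand, within the longer *Ptges* gene as GENCODE draws it but in none of its exons. The *Ptgs1* stretch is chr2:36230176-36230425 on the plus strand, and the *Alox5* stretch is chr6:116461179-116461428 on the minus strand; neither overlaps an annotated gene. Capitals mark matches to 2 short motifs, described after the sequences.
Ptgs2: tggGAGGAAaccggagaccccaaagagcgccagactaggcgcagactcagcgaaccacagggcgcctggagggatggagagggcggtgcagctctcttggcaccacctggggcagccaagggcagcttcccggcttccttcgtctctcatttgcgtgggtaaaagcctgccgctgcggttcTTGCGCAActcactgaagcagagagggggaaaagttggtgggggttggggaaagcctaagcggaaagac
Ptges: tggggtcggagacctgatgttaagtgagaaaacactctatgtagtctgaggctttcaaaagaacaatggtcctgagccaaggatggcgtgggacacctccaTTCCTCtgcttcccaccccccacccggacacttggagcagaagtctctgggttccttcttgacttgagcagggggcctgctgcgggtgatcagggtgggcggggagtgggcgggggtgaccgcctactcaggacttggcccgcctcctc
Ptgs1: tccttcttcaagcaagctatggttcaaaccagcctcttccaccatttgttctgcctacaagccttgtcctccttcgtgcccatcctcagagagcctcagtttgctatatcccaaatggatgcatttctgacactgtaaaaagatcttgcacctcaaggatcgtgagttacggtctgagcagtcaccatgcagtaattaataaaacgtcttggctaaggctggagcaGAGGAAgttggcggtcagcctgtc
Alox5: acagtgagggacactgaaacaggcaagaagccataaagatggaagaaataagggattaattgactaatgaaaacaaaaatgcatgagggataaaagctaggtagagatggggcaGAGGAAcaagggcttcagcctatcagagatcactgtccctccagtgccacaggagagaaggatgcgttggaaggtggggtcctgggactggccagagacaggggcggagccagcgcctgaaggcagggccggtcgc

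A total of 8 motifs were searched on both strands of the 250 bases before each start, in 9 stretches that belong to 8 of the members. The *Hpgds* and *Ltc4s* stretches overlap an annotated exon of their own gene, and 1 *Pla2g4a* stretch lies within that gene as GENCODE draws it. *Alox5ap* is named only. The core bound by PU.1, a factor of myeloid cells, GAGGAA or its reverse complement, matched in 6 members, beginning 247 bases before the start of *Ptgs2*, 149 before *Ptges*, 24 before *Ptgs1*, 136 before *Alox5*, 49 before *Hpgds* and 126 before *Lta4h*. Of 32851 RefSeq stretches of the same length, 23.3% held such a match. The C/EBP element TTGNNCAA matched once, 69 bases before the start of *Ptgs2*, and in 5.65% of all stretches. The other 6 motifs matched in none of the 9 stretches. These were the core of the interferon-stimulated response element GAAANNGAA (held by 7.13% of all stretches), the interferon-gamma activated site TTCNNNGAA (7.02%), the cyclic AMP response element TGACGTCA (1.55%), the AP-1 element TGANTCA (6.75%), the estrogen-related receptor element AAGGTCA (4.08%) and the E-box CACGTG (6.02%). A match describes the letters only, and a missing match says only that these letters are not in these windows.

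To compare the members with each other, CPM was divided by exon length. In unstimulated shControl cells *Alox5ap* was far above the others at 151 ± 3.23 CPM per kilobase, followed by *Ptgs1* (26.1 ± 2.46), *Lta4h* (15.9 ± 0.382), *Pla2g4a* (13.8 ± 0.928) and *Alox5* (8.13 ± 0.550). *Ltc4s* (3.46 ± 0.667), *Ptgs2* (2.54 ± 0.531) and *Ptges* (1.97 ± 0.275) came next, and the libraries of neighbours in that order overlapped for these 3 genes. *Hpgds* was lowest, at 0.220 ± 0.0251 CPM per kilobase. With IFN-β in shControl cells, *Ptgs2* (7.22 ± 0.803) and *Ptges* (6.11 ± 0.712) stood above *Alox5* (3.15 ± 0.257) on this scale, the opposite of the order at rest.

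**Figure D1:**
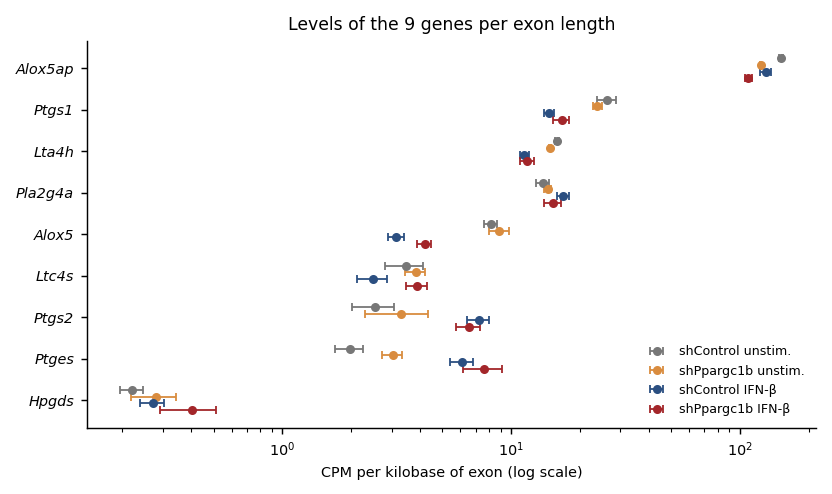
Mean level of each member in CPM per kilobase of exon (log scale), with the SD over 3 libraries, coloured by group. *Alox5ap* is highest in all 4 groups (109 to 151) and *Hpgds* lowest (0.220 to 0.403), while *Ptgs2* and *Ptges* move above *Alox5* with IFN-β.

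IFN-β changed most of these genes. *Ptgs2* and *Ptges* rose, and *Alox5*, *Alox5ap* and *Lta4h* of the leukotriene branch and *Ptgs1* fell, in both cell groups. In shControl cells, 3 members rose (*Ptges*, *Ptgs2* and *Pla2g4a*) and 5 fell (*Alox5*, *Ptgs1*, *Lta4h*, *Ltc4s* and *Alox5ap*), so that 8 of 9 passed an adjusted p of 0.05. Of the 18228 genes tested, 48.2% passed, 23.7% higher and 24.6% lower. In sh*Ppargc1b* cells 2 rose (*Ptges* and *Ptgs2*) and 4 fell (*Alox5*, *Ptgs1*, *Lta4h* and *Alox5ap*), where 42.6% of all genes passed, 21.4% higher and 21.2% lower. The libraries of the compared groups did not overlap for 8 members in shControl (56.7% of all genes) and for 6 in sh*Ppargc1b* cells (50.1% of all genes). The median absolute log2 fold change over the 9 members was 0.48 in shControl and 0.51 in sh*Ppargc1b* cells, beside 0.32 and 0.27 over all genes. The all-gene median for IFN-β was -0.03 and -0.02, and it was -0.27 and -0.22 when only library totals were used for scaling.

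Knockdown of *Ppargc1b* changed fewer of them than IFN-β did, as was the case for all genes. In unstimulated cells 1 member rose (*Ptges*) and 1 fell (*Alox5ap*), 2 of 9, where 23.6% of all genes passed, 12.4% higher and 11.1% lower. With IFN-β 2 rose (*Ltc4s* and *Alox5*) and 1 fell (*Alox5ap*), 3 of 9, where 24.2% of all genes passed, 11.5% higher and 12.7% lower. The libraries did not overlap for 3 members in each of these comparisons, beside 36.8% and 38.7% of all genes. The median absolute log2 fold change of the members was 0.14 without and 0.26 with IFN-β, beside 0.17 and 0.18 over all genes. The count with IFN-β depended on single libraries, since 5 members passed without sh*Ppargc1b* unstimulated replicate 3 and 6 without sh*Ppargc1b* IFN-β replicate 2. The knockdown comparisons share no library with each other, but each shares its groups with the IFN-β comparisons.

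The question of whether the knockdown effect differs with and without IFN-β was tested as an interaction. None of the 9 members passed with edgeR, where 0.73% of all genes did (0.0603% higher and 0.669% lower), and 4 had an unadjusted p under 0.05, as did 1909 of the 18228 genes. None passed with DESeq2 or limma-voom either. When every gene with at least 1 count was kept, 2 members and 525 of all genes passed, *Ptgs1* with 0.30 (adjusted p = 0.0131) and *Ptgs2* with -0.53 (adjusted p = 1.7e-04). An effect that passed in one treatment and not in the other is therefore not shown to differ between them here.

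**Figure D2:**
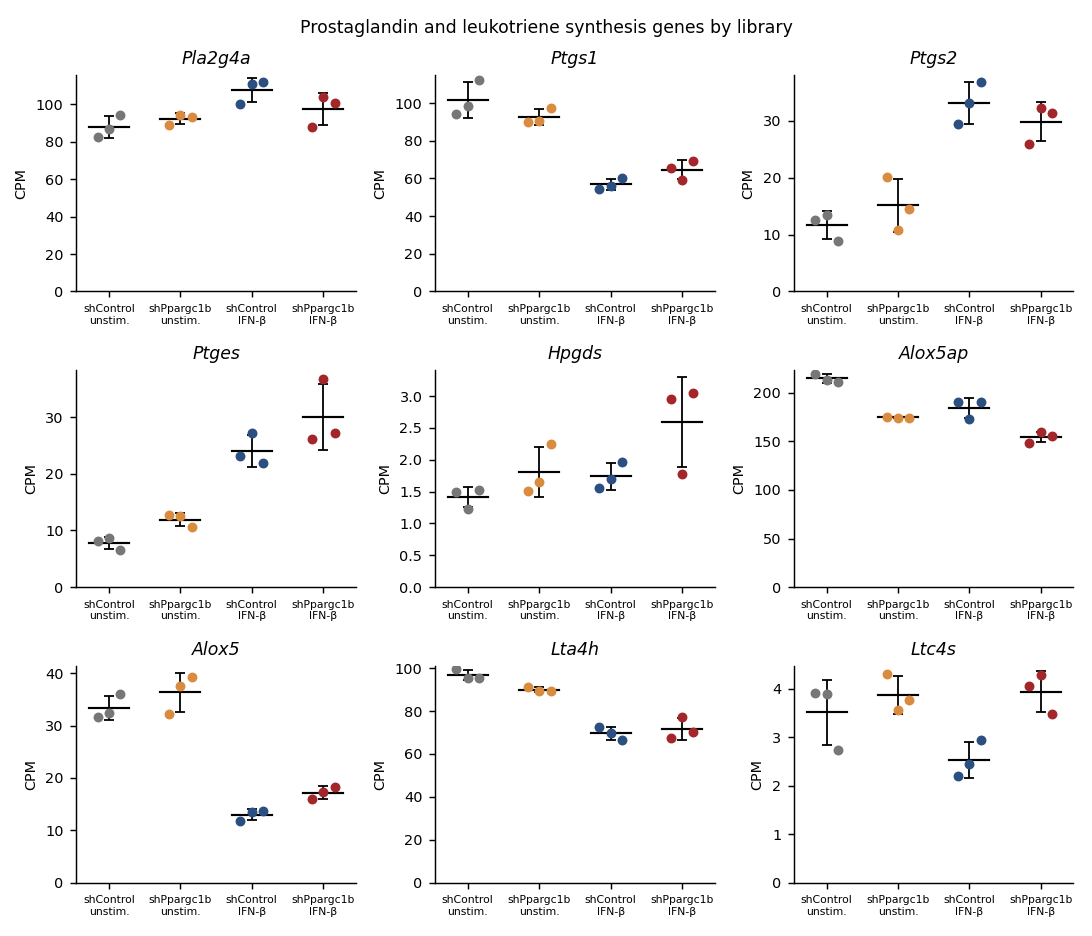
CPM of each member in each library (points), with the mean (bar) and SD (error bar) of the 3 libraries per group, on axes that start at 0. *Ptgs2* and *Ptges* are higher and *Alox5*, *Ptgs1* and *Lta4h* lower in the IFN-β groups, and *Alox5ap* is lower in sh*Ppargc1b* than in shControl cells in both treatments.

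The pathway begins with *Pla2g4a* (ENSMUSG00000056220, chromosome 1, 149829618 to 149961290, minus strand, GRCm38), the cytosolic phospholipase A2 that releases arachidonic acid. Its shControl libraries were at 82.6, 87.0 and 94.3 CPM without and 100, 111 and 112 CPM with IFN-β. The sh*Ppargc1b* libraries were at 88.9, 94.4 and 93.3 CPM without and 88.0, 104 and 101 CPM with IFN-β. The treated shControl libraries were thus all above the untreated ones, while the sh*Ppargc1b* groups overlapped. *Pla2g4a* rose by 0.29 ± 0.06 on the log2 scale with IFN-β in shControl (SE, adjusted p = 0.00144), and the value in sh*Ppargc1b* cells was 0.08 ± 0.06 (adjusted p = 0.354). Scaled by library totals alone, the first value was 0.05 (adjusted p = 0.502). Knockdown gave 0.07 in unstimulated cells (adjusted p = 0.509) and -0.14 in treated ones (adjusted p = 0.126), and the latter passed without shControl IFN-β replicate 1 (0.0454) or sh*Ppargc1b* IFN-β replicate 2 (0.0443).

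Of the cyclooxygenases, the constitutive *Ptgs1* (ENSMUSG00000047250, chromosome 2, 36230426 to 36252272, plus strand) fell with IFN-β. It was at 94.0, 98.4 and 112 CPM in unstimulated and 54.6, 56.2 and 60.3 CPM in treated shControl libraries. In sh*Ppargc1b* cells it was at 90.0, 90.4 and 97.5 CPM and at 65.7, 59.0 and 69.0 CPM. In both cell groups every treated library was below every untreated one. The log2 fold change was -0.83 ± 0.07 in shControl (adjusted p = 7.0e-08), which leaves 56.2% of the level, and -0.52 ± 0.07 in sh*Ppargc1b* cells (adjusted p = 1.7e-05), which leaves 69.7%. Knockdown gave -0.13 without IFN-β (adjusted p = 0.188) and 0.18 with it (adjusted p = 0.0773), an interaction of 0.31 ± 0.10 (95% interval 0.10 to 0.52, adjusted p = 0.194). The value with IFN-β passed when 1 of 4 libraries was left out, which were sh*Ppargc1b* IFN-β replicate 2 (0.0263), sh*Ppargc1b* unstimulated replicate 3 (0.0481) and shControl unstimulated replicates 1 (0.0377) and 3 (0.0238). It also passed with every gene of at least 1 count kept (0.0092) and with only the compared groups fitted (0.0405).

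The inducible cyclooxygenase *Ptgs2* (ENSMUSG00000032487, chromosome 1, 150100031 to 150108227, plus strand), also known as COX-2, moved the opposite way. Unstimulated shControl libraries were at 12.5, 13.5 and 8.87 CPM, and treated ones were at 29.4, 33.0 and 36.7 CPM. Unstimulated sh*Ppargc1b* libraries were at 20.1, 10.9 and 14.5 CPM, the widest spread relative to the mean of any member in that group, and treated ones were at 25.9, 32.3 and 31.4 CPM. All 6 treated libraries were above all 6 untreated ones. *Ptgs2* rose 2.84-fold in shControl (log2 1.51 ± 0.18, adjusted p = 5.1e-06) and 1.98-fold in sh*Ppargc1b* cells (0.98 ± 0.18, adjusted p = 3.5e-04). The difference between these responses was -0.52 ± 0.25 (95% interval -1.07 to 0.02, adjusted p = 0.503). Knockdown gave 0.38 ± 0.19 without IFN-β (adjusted p = 0.171), which passed without sh*Ppargc1b* unstimulated replicate 2 (0.57, 0.0295) and when every gene with at least 1 count was kept (0.39, 1.1e-05), and -0.15 ± 0.17 with IFN-β (adjusted p = 0.60).

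Per exon length, *Ptgs2* made up 8.95 ± 2.32% of the summed *Ptgs1* and *Ptgs2* level in unstimulated shControl and 32.9 ± 1.40% in treated shControl cells (SD, n = 3 each). In sh*Ppargc1b* cells the share went from 12.1 ± 3.42% to 28.2 ± 3.34%. The exact two-sided permutation p was 0.1 for both IFN-β comparisons, the smallest that 3 libraries against 3 can give, and it was 0.4 and 0.2 for knockdown without and with IFN-β. *Ptgs1* therefore remained the larger part of the pair in all 12 libraries, where the highest *Ptgs2* share was 34.1%.

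Among the terminal prostaglandin synthases, *Ptges* (ENSMUSG00000050737, chromosome 2, 30889471 to 30929863, minus strand), the inducible microsomal prostaglandin E synthase that is known to work with COX-2, had the largest rise of the 9 members with IFN-β. Its shControl libraries were at 8.05, 8.67 and 6.56 CPM without and 23.1, 27.2 and 21.8 CPM with IFN-β. Its sh*Ppargc1b* libraries were at 12.7, 12.5 and 10.6 CPM without and 26.2, 36.8 and 27.1 CPM with IFN-β. Each unstimulated sh*Ppargc1b* library was above each unstimulated shControl library, and the treated groups overlapped. With IFN-β *Ptges* rose 3.09-fold in shControl (log2 1.63 ± 0.14, adjusted p = 7.6e-08) and 2.53-fold in sh*Ppargc1b* cells (1.34 ± 0.13, adjusted p = 6.5e-07). Knockdown raised it 1.53-fold in unstimulated cells (0.62 ± 0.14, adjusted p = 0.00403), and its adjusted p was at most 0.0247 in the alternatives run. With IFN-β the knockdown value was 0.32 ± 0.13 (adjusted p = 0.0793), which passed without sh*Ppargc1b* IFN-β replicate 1 (0.0490) and with every gene of at least 1 count kept (3.3e-04), and the interaction was -0.29 ± 0.19 (95% interval -0.69 to 0.11, adjusted p = 0.660).

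*Hpgds* (ENSMUSG00000029919, chromosome 6, 65117293 to 65144908, minus strand), the haematopoietic prostaglandin D synthase known from mast cells and T helper cells, was the least abundant member. It was at 1.49, 1.23 and 1.52 CPM in unstimulated shControl and 1.56, 1.70 and 1.97 CPM in treated shControl libraries, or 72 to 140 counts. The sh*Ppargc1b* libraries were at 1.5, 1.65 and 2.25 CPM without and 2.96, 1.77 and 3.05 CPM with IFN-β. sh*Ppargc1b* IFN-β replicate 2 was apart from the other 2 of its group. No comparison of *Hpgds* passed. The nearest were IFN-β in sh*Ppargc1b* cells (0.51 ± 0.21, adjusted p = 0.0610) and knockdown with IFN-β (0.56 ± 0.21, adjusted p = 0.0683). Without sh*Ppargc1b* IFN-β replicate 2 both passed (0.0052 and 0.0082), as they did without sh*Ppargc1b* unstimulated replicate 3 (0.0224 and 0.0482) and with every gene of at least 1 count kept (0.0439 and 0.0251). The first also passed with DESeq2 (0.0448). IFN-β in shControl gave 0.31 ± 0.22 (adjusted p = 0.271) and knockdown without IFN-β 0.36 ± 0.22 (adjusted p = 0.274).

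The leukotriene branch opens with *Alox5ap* (ENSMUSG00000060063, chromosome 5, 149264767 to 149288153, plus strand), which encodes FLAP, the membrane protein that presents arachidonic acid to lipoxygenase. Unstimulated shControl libraries were at 220, 214 and 211 CPM, and unstimulated sh*Ppargc1b* libraries at 176, 175 and 174 CPM. Treated shControl libraries were at 190, 173 and 191 CPM, and treated sh*Ppargc1b* libraries at 149, 160 and 155 CPM. In each treatment all sh*Ppargc1b* libraries were below all shControl libraries. *Alox5ap* fell with knockdown to 81.3% of control without IFN-β (log2 -0.30 ± 0.04, adjusted p = 9.65e-05) and to 83.8% with it (-0.26 ± 0.04, adjusted p = 4.3e-04), and the interaction was 0.04 ± 0.06 (95% interval -0.09 to 0.17, adjusted p = 0.894). IFN-β lowered it too, to 85.9% in shControl (-0.22 ± 0.04, adjusted p = 5.1e-04) and to 88.5% in sh*Ppargc1b* cells (-0.18 ± 0.04, adjusted p = 0.0035). It was the only member that passed in all 4 of these comparisons.

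*Alox5* (ENSMUSG00000025701, chromosome 6, 116410077 to 116461178, minus strand), the lipoxygenase that FLAP serves, had the largest fall of the 9 with IFN-β. It was at 31.7, 32.5 and 36.0 CPM in unstimulated and 11.7, 13.5 and 13.6 CPM in treated shControl libraries. In sh*Ppargc1b* cells it was at 32.2, 37.7 and 39.2 CPM without and 15.9, 17.3 and 18.3 CPM with IFN-β. The treated groups did not overlap with each other, and the untreated groups did. IFN-β left 38.9% of the level in shControl (log2 -1.36 ± 0.09, adjusted p = 2.2e-09) and 47.2% in sh*Ppargc1b* cells (-1.08 ± 0.08, adjusted p = 3.9e-08). With IFN-β, *Alox5* was 1.32-fold higher in sh*Ppargc1b* than in shControl cells (0.40 ± 0.09, adjusted p = 0.00290), and without it the value was 0.12 ± 0.08 (adjusted p = 0.310). The interaction was 0.28 ± 0.12 (95% interval 0.03 to 0.53, adjusted p = 0.414).

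Per exon length, *Alox5* made up 5.10 ± 0.417% of the summed *Alox5* and *Alox5ap* level in unstimulated shControl and 6.71 ± 0.665% in unstimulated sh*Ppargc1b* cells (SD, n = 3 each). With IFN-β the shares were 2.37 ± 0.271% and 3.70 ± 0.197%. The groups did not overlap in any of the 4 comparisons, with a two-sided p of 0.1 by exact permutation in each, the smallest it can be.

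**Figure D3:**
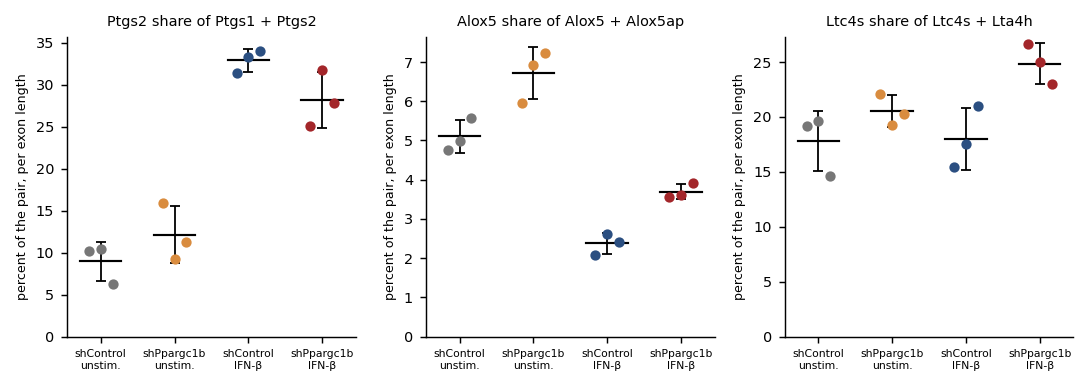
Share of *Ptgs2* in the *Ptgs1* and *Ptgs2* sum, of *Alox5* in the *Alox5* and *Alox5ap* sum and of *Ltc4s* in the *Ltc4s* and *Lta4h* sum, in percent per exon length, for each library (points) with the mean (bar) and SD (error bar) of 3 libraries per group. The *Ptgs2* share goes up and the *Alox5* share goes down with IFN-β, and the *Ltc4s* share is highest in treated sh*Ppargc1b* cells (24.9%).

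At the branch after leukotriene A4, *Lta4h* (ENSMUSG00000015889, chromosome 10, 93453411 to 93484875, plus strand), the hydrolase that makes leukotriene B4, was lower with IFN-β. Its libraries were at 99.6, 95.5 and 95.6 CPM in unstimulated and 72.6, 69.8 and 66.6 CPM in treated shControl cells. In sh*Ppargc1b* cells they were at 91.3, 89.4 and 89.4 CPM and at 67.5, 77.5 and 70.1 CPM. Treated and untreated libraries did not overlap in either. The log2 fold change with IFN-β was -0.48 ± 0.05 in shControl (adjusted p = 9.1e-07) and -0.33 ± 0.05 in sh*Ppargc1b* cells (adjusted p = 6.0e-05). Knockdown gave -0.11 ± 0.05 in unstimulated cells, where the libraries did not overlap but the test did not pass (adjusted p = 0.142), and 0.04 ± 0.05 in treated cells (adjusted p = 0.605).

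*Ltc4s* (ENSMUSG00000020377, chromosome 11, 50236461 to 50238616, minus strand), the synthase of leukotriene C4, rested on 102 to 273 counts per library. It was at 3.92, 3.88 and 2.73 CPM in unstimulated and 2.20, 2.46 and 2.94 CPM in treated shControl libraries. In sh*Ppargc1b* cells it was at 4.31, 3.55 and 3.77 CPM without and 4.07, 4.29 and 3.47 CPM with IFN-β. The treated sh*Ppargc1b* libraries were all above the treated shControl libraries, and the other groups compared overlapped. With IFN-β, *Ltc4s* was 1.55-fold higher in sh*Ppargc1b* than in shControl cells (log2 0.63 ± 0.16, adjusted p = 0.00876), and without it the value was 0.14 ± 0.15 (adjusted p = 0.583). The interaction was 0.49 ± 0.22 (95% interval 0.02 to 0.96, adjusted p = 0.446).

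With IFN-β *Ltc4s* fell by 0.46 ± 0.16 on the log2 scale in shControl (adjusted p = 0.0250), and the value in sh*Ppargc1b* cells was 0.03 ± 0.15 (adjusted p = 0.910). The fall was lost without shControl unstimulated replicate 1 (0.0860) or 2 (0.0858) or shControl IFN-β replicate 1 (0.118) or 2 (0.0888). Exons of *Ltc4s* share 268 bases with the antisense gene *Gm26542*, and whether counting used strand was not given. *Gm26542* held 24 to 75 counts per library and was at 0.679 ± 0.253 CPM in treated shControl and 1.05 ± 0.224 CPM in treated sh*Ppargc1b* cells. Its part in the *Ltc4s* result was not tested.

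*Ltc4s*, *Hpgds* and *Alox5* are also known as genes of mast cells, basophils or eosinophils, so markers of those cells were examined beside them. The summed level of 12 mast cell or basophil-like markers was 9.29 to 18.5 CPM in unstimulated shControl and 23.0 to 27.8 CPM in unstimulated sh*Ppargc1b* cells. With IFN-β it was 12.5 to 20.4 CPM in shControl and 18.5 to 27.99 CPM in sh*Ppargc1b* cells. Of 8 such markers tested, *Gata2*, *Kit* and *Hdc* were higher with knockdown in unstimulated cells and *Gata2* and *Kit* with IFN-β, while *Fcer1a*, *Ms4a2*, *Cpa3*, *Mcpt8* and *Prss34* did not pass. Of all genes, 12.4% and 11.5% were higher in these comparisons. In unstimulated cells *Kit* was at 7.54 CPM in shControl and 14.3 CPM in sh*Ppargc1b* cells, and *Gata2* at 1.87 and 5.84 CPM. For IFN-β, 1 of the 8 was higher and 1 lower in shControl (23.7% and 24.6% of all genes). In sh*Ppargc1b* cells 1 was higher and 2 lower (21.4% and 21.2% of all genes). Of the granule genes, *Cpa3* had 37 to 386 counts per library in treated shControl cells, *Mcpt8* 27 to 118, *Prss34* 11 to 87, *Tpsb2* 0 to 21 and *Cma1* 1 to 3, while *Mcpt4* and *Tpsab1* were at 0 there. The summed level of 6 eosinophil-like markers was 31.1 to 61.2 CPM in treated shControl and 22.7 to 45.6 CPM in treated sh*Ppargc1b* cells, and none of the 6 passed in any comparison with edgeR. The summed level of 10 neutrophil-like markers, of which 1 passed, was 60.9 to 120 CPM in treated shControl and 105 to 187 CPM in treated sh*Ppargc1b* cells. The part of such cells in the values of *Ltc4s*, *Hpgds* and *Alox5* was not tested.

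Per exon length, *Ltc4s* made up 17.8 ± 2.75% of the summed *Ltc4s* and *Lta4h* level in unstimulated shControl and 20.6 ± 1.43% in unstimulated sh*Ppargc1b* cells. With IFN-β the shares were 18.0 ± 2.80% and 24.9 ± 1.83%, and the knockdown groups did not overlap (exact permutation p = 0.1, the smallest possible with n = 3).

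**Figure D4:**
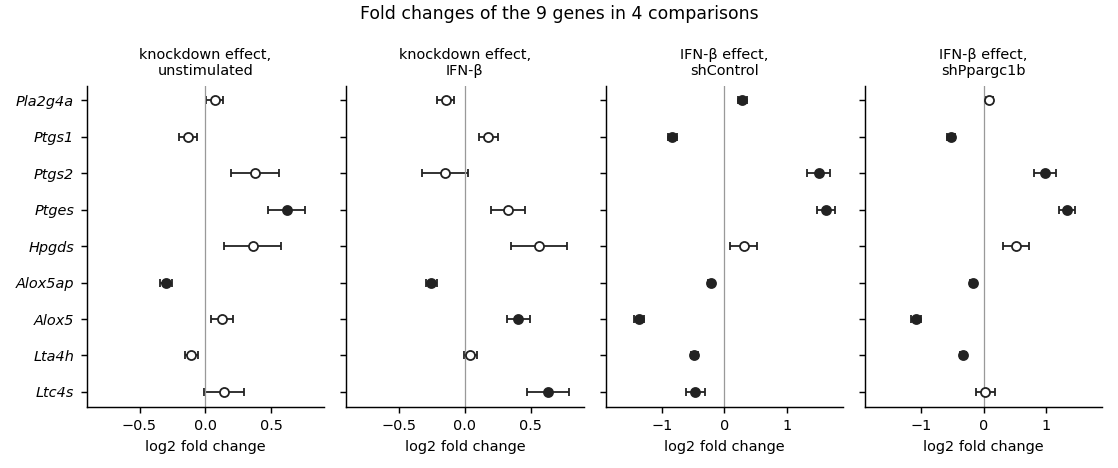
Log2 fold change of each member (points) with its SE (bars) in the 4 comparisons, where filled points passed an adjusted p of 0.05, and with a narrower axis for the knockdown comparisons. *Alox5ap* is filled in all 4, *Ptges* and *Ptgs2* are right of 0 and *Alox5*, *Ptgs1* and *Lta4h* left of 0 with IFN-β in both cell groups.

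The rest of the eicosanoid pathway was examined through 8 lists written from general knowledge, of which 44 genes were tested. With IFN-β 8 of the 44 rose and 20 fell in shControl, where 23.7% of all genes were higher and 24.6% lower. In sh*Ppargc1b* cells 9 rose and 16 fell, beside 21.4% and 21.2% of all genes. With knockdown 5 rose and 11 fell without IFN-β, beside 12.4% and 11.1% of all genes. In treated cells 6 rose and 6 fell with knockdown, beside 11.5% and 12.7% of all genes. The counts of single lists below stand beside the same all-gene shares. For IFN-β the 44 had a median log2 fold change of -0.28 (shControl) and -0.15 (sh*Ppargc1b*), beside -0.03 and -0.02 over all genes. It was -0.01 and 0.03 for knockdown without and with IFN-β. None of the 44 passed the interaction with edgeR or limma-voom, and 2 passed with DESeq2.

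Among the other prostanoid synthases none of 7 rose in any comparison, while 5 fell with IFN-β in shControl, 4 with IFN-β in sh*Ppargc1b* cells, 2 with knockdown without IFN-β and 1 with it. *Tbxas1*, the thromboxane synthase, was the most abundant gene of this list and was at 249 ± 2.38 CPM in unstimulated shControl, 184 ± 11.5 CPM in unstimulated sh*Ppargc1b*, 183 ± 3.92 CPM in treated shControl and 148 ± 4.54 CPM in treated sh*Ppargc1b* cells. It fell with knockdown by 0.43 and by 0.31 on the log2 scale (adjusted p = 4.0e-06 and 1.15e-04) and with IFN-β by 0.44 and by 0.31 (adjusted p = 5.5e-07 and 3.0e-05), so that, like *Alox5ap*, it passed in all 4 comparisons. *Ptges2*, another prostaglandin E synthase, fell with IFN-β by 0.49 in shControl and by 0.36 in sh*Ppargc1b* cells, where *Ptges* rose. *Cbr1*, a carbonyl reductase that acts on prostaglandins, fell with IFN-β by 0.52 in shControl, and *Prxl2b*, which makes prostaglandin F, by 0.77 in sh*Ppargc1b* cells (adjusted p = 0.00261).

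Of 9 other phospholipase A2 genes, 2 rose and 3 fell with IFN-β in shControl, and 3 rose and 3 fell in sh*Ppargc1b* cells. *Pla2g4c*, a relative of *Pla2g4a*, rose most, by 1.57 and 1.35 on the log2 scale (adjusted p = 3.0e-05 and 1.9e-04), and *Pla2g6* changed by -0.86 and -0.67. With knockdown, *Pla2g15*, a lysosomal phospholipase, fell by 0.45 without IFN-β (adjusted p = 1.2e-04). *Pla2g2d*, a secreted form, was higher by 1.49 with IFN-β (adjusted p = 0.0236), on 7 to 23 counts per library. That call was lost without shControl IFN-β replicate 2 or 3 or sh*Ppargc1b* IFN-β replicate 1 or 3 (0.0596 to 0.106). Of 2 other lipoxygenases tested, *Alox12* rose with IFN-β by 1.33 and 1.81, on 7 to 49 counts per library, and *Alox15* did not pass. The rise of *Alox12* by 1.02 with knockdown under IFN-β (adjusted p = 0.0192) was lost without any 1 of the shControl IFN-β libraries or without sh*Ppargc1b* IFN-β replicate 2 or 3 (0.0518 to 0.0988).

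Beside *Ltc4s*, 7 genes of leukotriene C4 conjugation and conversion were tested. *Mgst2*, a microsomal enzyme that can also make leukotriene C4, fell with IFN-β by 0.75 in shControl and by 0.79 in sh*Ppargc1b* cells. With knockdown its values were 0.34 and 0.30, calls that were lost when replicate 2 of unstimulated sh*Ppargc1b* or replicate 1 or 3 of unstimulated shControl was left out (0.0506 to 0.0803), and without shControl IFN-β replicate 1 or 3 or sh*Ppargc1b* IFN-β replicate 2 (0.118 to 0.223). Its relative *Mgst3* fell with knockdown by 0.60 without and by 0.36 with IFN-β. Of 5 genes that break eicosanoids down, *Cyp4f18*, which acts on leukotriene B4, fell with knockdown by 0.58 and by 0.69. *Ptgr1*, the leukotriene B4 dehydrogenase, was higher by 0.32 with knockdown in unstimulated cells and fell with IFN-β by 0.39 and by 0.63. *Cyp4f16* fell with IFN-β by 0.48 and by 0.45. All of these had an adjusted p of at most 0.00707 except the knockdown values of *Mgst2*.

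All 3 transporters passed with IFN-β in both cell groups. *Slco2a1*, which carries prostaglandins into cells, rose by 2.47 ± 0.31 in shControl and by 1.75 ± 0.31 in sh*Ppargc1b* cells, from 0.20 CPM in unstimulated to 1.11 CPM in treated shControl cells. *Abcc1* and *Abcc4*, which export leukotriene C4 and prostaglandins, fell by 0.41 and by 0.43 in shControl and by 0.66 and by 0.56 in sh*Ppargc1b* cells. *Abcc1* was higher by 0.31 with knockdown in unstimulated cells (adjusted p = 0.00253).

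Of the receptors for prostanoids, 6 were tested. The receptors for prostaglandin E2 moved in different directions with knockdown. *Ptger4* was at 85.7 ± 5.55 CPM in unstimulated shControl cells and rose to 111 ± 3.79 CPM, and in treated cells it rose from 85.6 ± 1.48 to 114 ± 4.48 CPM (log2 0.37 and 0.42, adjusted p = 4.6e-05 and 1.8e-05). *Ptger2* fell by 0.49 and by 0.32 (adjusted p = 2.0e-04 and 0.00914). With IFN-β *Ptger2* fell further, by 0.78 and by 0.61, and *Ptger4* gave -0.00 and 0.05 (adjusted p = 0.978 and 0.482). *Ptger3* was lower by 1.02 with IFN-β in shControl (adjusted p = 0.0358), a call that was lost when any 1 of the 6 shControl libraries was left out (0.0504 to 0.0971).

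Of 5 receptors for leukotrienes and lipoxins, 3 rose and 2 fell with IFN-β in both cell groups, and with knockdown none rose. *Cysltr2*, a receptor for cysteinyl leukotrienes, rose with IFN-β from 6.58 ± 0.358 to 15.6 ± 1.17 CPM in shControl and from 5.10 ± 0.765 to 9.77 ± 0.784 CPM in sh*Ppargc1b* cells (log2 1.25 and 0.94). *Cysltr1*, the other such receptor, rose by 0.41 and 0.47, and *Fpr2*, a receptor for lipoxin A4 and formyl peptides, by 1.09 and 0.82. *Ltb4r1*, the receptor for leukotriene B4, fell with IFN-β by 1.11 and by 0.60. The low-affinity receptor *Ltb4r2* was the other that fell, with an adjusted p of 0.0496 in sh*Ppargc1b* cells. That call was lost without sh*Ppargc1b* IFN-β replicate 1, 2 or 3, shControl IFN-β replicate 3, or replicate 1 or 2 of either unstimulated group (0.052 to 0.244). With knockdown *Cysltr1* fell by 0.48 and by 0.42 (adjusted p = 9.0e-06 and 3.1e-05) and *Cysltr2* by 0.37 and by 0.68 (adjusted p = 0.0202 and 1.5e-04). The first *Cysltr2* call was lost when replicate 2 or 3 of unstimulated sh*Ppargc1b* or replicate 3 of unstimulated shControl was left out (0.0588 to 0.103). *Ltb4r1* fell with knockdown in unstimulated cells by 0.53 (adjusted p = 0.00242). In treated cells its knockdown value was -0.03 (adjusted p = 0.886), an interaction of 0.50 (adjusted p = 0.215).

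**Figure D5:**
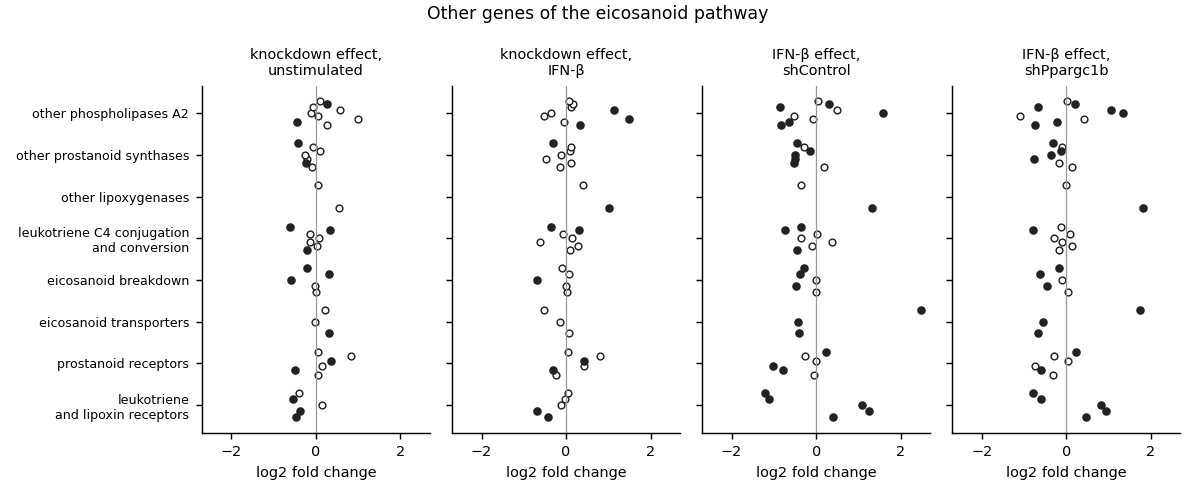
Log2 fold changes of the 44 other tested genes of the eicosanoid pathway, 1 row per list and 1 point per gene, in the 4 comparisons, where filled points passed an adjusted p of 0.05. The filled points of the prostanoid synthases lie left of 0 in every panel, and those of the leukotriene and lipoxin receptors lie on both sides with IFN-β and left of 0 with knockdown.

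For each member, the 2 genes with the most similar profile were sought among 8750 or 8751 genes, by the root-mean-square difference of log2 CPM over the 12 libraries after each gene was centred on its own mean. For *Ptgs2* they were *Cflar* and *Trim6* (0.23 each), for *Ptges* *H2-Q6* and *Stx11* (0.14 each) and for *Alox5* *Pfas* and *Rrp1b* (0.10 and 0.12). *Ptgs1* was nearest to *Lrwd1* and *Wdr3* (0.06 and 0.07), and *Lta4h* to *Atg7* and *Fam50a* (0.04 and 0.05). For *Alox5ap* they were *Vps13d* and *Uqcr10* (0.04 and 0.05), and for *Pla2g4a* *Rnf4* and *Lilrb4a* (0.06 each). The low-count members *Hpgds* (*Stap2* and *Pkib*, 0.17 and 0.19) and *Ltc4s* (*Mmp19* and *Antxr2*, 0.18 and 0.19) had a spread of their own of 0.38 and 0.31 (SD of log2 CPM over the 12 libraries). The median difference over all candidates ranged from 0.21 for *Pla2g4a* to 0.81 for *Ptges*. These libraries share 4 conditions, so that any gene with a similar response to IFN-β lies near.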

How the data were processed

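RNA-seq was done on 12 libraries in 4 groups of 3. Ribosomal RNA was depleted, and per the submitters' processing notes reads were trimmed with Trim Galore 0.6.0 and mapped to mm10 with STAR 2.7.8a. The deposited values were raw counts per GENCODE gene, with no normalization by the authors, and all count columns were used. The strand setting of the counting is not given in the sources used here. Positions and exon lengths came from GENCODE M21 (GRCm38), and sequences before gene starts from RefSeq (GRCm38.p6). Replicate numbers follow the record order and were not used to pair libraries. In no group did 2 libraries agree within counting noise.

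Differential expression was computed from the counts, as in the study's methods, by edgeR 4.0.16 (R 4.3.3). filterByExpr (minimum count 10, minimum total 15) kept 18228 genes, scaling used TMM factors, and the model had 1 mean for each group over the 12 libraries. The quasi-likelihood F-test was used for each contrast, with Benjamini-Hochberg adjustment over all genes tested and a threshold of 0.05. Adjusted p-values in the text come from this test unless another tool is named. CPM used TMM-scaled library sizes, the ± beside a CPM is the SD of 3 libraries and beside a log2 fold change the SE. Ratios of pairs were compared by an exact permutation test. Alternatives were library totals or DESeq2 size factors for scaling, DESeq2 1.42.0, limma-voom (limma 3.58.1), filters of at least 1 count or of 1 CPM in 3 libraries, only the compared groups, a threshold of 0.01 and each library left out. The procedure was tested on simulated data.

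All members were described, and some of the pathway genes that passed a test were named, the largest change of each list first. Similar genes needed a mean log2 CPM of at least 3. The members, lists, motifs and tests were chosen with earlier results of these data known.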

Additional observations from a re-analysis of the deposited data

How the results depend on the processing

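Of 891 member values under other settings, 856 kept their direction and side of the threshold, 21 newly passed, 6 no longer passed and 8 changed sign. Those were *Ltc4s* with knockdown without IFN-β (-0.012 without shControl unstimulated replicate 3, and -0.012 to 0.22 over the left-out libraries), *Lta4h* with knockdown under IFN-β (-0.00 without shControl IFN-β replicate 3 and -0.029 without sh*Ppargc1b* IFN-β replicate 2, range -0.029 to 0.071), *Alox5ap* in the interaction (-0.018 without shControl IFN-β replicate 2, range -0.018 to 0.077), and, for IFN-β in sh*Ppargc1b* cells, *Pla2g4a* (-0.12 with library totals alone) and *Ltc4s* (-0.18 with library totals alone, -0.026 without sh*Ppargc1b* unstimulated replicate 2 and -0.034 without sh*Ppargc1b* IFN-β replicate 2, range -0.034 to 0.11). None of these had passed before. Of 1611 values of called pathway genes, 116 no longer passed and 2 changed sign, both with library totals alone, *Ptgir* with IFN-β in shControl (-0.014) and *Pla2g7* with IFN-β in sh*Ppargc1b* cells (-2.8e-05). Library totals alone also moved 14 of 36 member levels by more than 1 SD, while DESeq2 size factors or a left-out library moved none.

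With an adjusted p under 0.01, 2669 genes passed with knockdown without IFN-β and 2714 with it, where 7 pathway genes passed, and 28 passed the interaction. With every gene of at least 1 count kept, 6 members passed with knockdown under IFN-β, and 2 members, 4 pathway genes and 525 genes passed the interaction. The interaction count of all genes was 84 with library totals alone and 449 with DESeq2, which also called 2 pathway genes. With 1 library left out, 3 to 6 members passed with knockdown under IFN-β, and the interaction was passed by 36 to 271 genes and 0 to 1 pathway genes. The cause was not tested. Counts of 72 to 273 per library limit *Hpgds* and *Ltc4s*. No paired analysis was run because the labels give no replicate numbers. In record order the libraries run in 3 sets that hold each group once. *Alox5*, *Ptgs1* and *Hpgds* were highest in replicate 3 in all 4 groups. Whether a set shares a culture or a day is not given, and a difference between sets was not tested or taken out.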
